A study of Mus musculus with 15 samples.

Results

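The genes described here are *Arntl*, *Clock*, *Npas2*, *Nfil3*, *Cry1* and *Rora*. They are the activating arm of the circadian clock and genes grouped with it for a peak near that of *Arntl*, which these data cannot show. They were found by symbol in the count files, where all 6 were present among 24982 gene symbols, and all 6 passed the filter on low counts that left 14121 genes for testing. The 6 genes were chosen from the group differences of these same libraries, with their direction in orchiectomized against control mice in view, so their levels and fold changes are given as a description. Where they are counted among the genes that passed a threshold, the share of all genes that passed stands beside the count and nothing is read from it. The study profiled mRNA of 15 whole-aorta samples from male WT C57BL/6 mice by RNA-Seq, with 5 numbered samples in each of 3 groups. All mice were 10 months old, were housed on a cycle of 14 hours of light and 10 hours of dark, and were given aldosterone by minipump (200 µg/kg per day) together with 0.9% NaCl and 0.2% KCl in the drinking water (Aldo-salt) for 7 days. Control mice had a sham operation 2 weeks before Aldo-salt, the second group had an orchiectomy instead, and the third had an orchiectomy and a pellet of DHT, an androgen that aromatase cannot turn into estrogen. No group without Aldo-salt was among the 15 libraries, so every difference below is between mice that all received it.

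The circadian clock is a feedback loop of transcription factors that runs in nearly every cell, including smooth muscle and endothelial cells of the aorta. BMAL1, the product of *Arntl*, pairs with CLOCK or with its relative NPAS2, and the pair binds E-boxes and turns on the *Per* and *Cry* genes, whose products then shut the pair off. In a second loop the same pair turns on *Nr1d1* and *Nr1d2*, whose products (REV-ERBs) repress *Arntl* and its companions at elements where the ROR proteins, among them RORα from *Rora*, activate. In another loop NFIL3 and the PAR bZIP factors DBP, TEF and HLF compete for D-boxes, NFIL3 as the repressor. *Arntl* and *Nfil3* transcripts therefore peak at about the opposite time of day from those of *Nr1d1* and *Dbp*. The hour at which the aortas were harvested is not given in the sources used here, so a shift in the level of a clock gene and a different point of its daily cycle cannot be told apart in these data.

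The promoter elements that define these loops were searched in RefSeq windows running from 250 bases before to 50 after each annotated start (GRCm38, both strands), 9 windows for the 6 genes and 32851 in all. The ROR and REV-ERB element was searched as TAGGTCA, found in 2.61% of all windows, and as the looser TAGGTNA, found in 8.29%. *Arntl* held a looser and a strict match close together, and *Nfil3* held a strict match read on its opposite strand. *Cry1*, which joins the E-box loop as a target and a repressor, held an E-box (CACGTG, 7.15% of all windows) and a variant, the E-prime box (CACGTT, 4.68%), read on the opposite strand. Elements outside these windows, such as those in introns, were not searched, so a window without a match does not show that a gene lacks the element. The stretches with matches in *Arntl*, *Nfil3* and *Cry1* are shown here, and the capitals mark the matches.
Arntl, first element, chr7:113207494-113207523, plus strand: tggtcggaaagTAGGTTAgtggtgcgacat
Arntl, second element, chr7:113207530-113207559, plus strand: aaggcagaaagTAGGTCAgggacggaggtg
Nfil3, chr13:52981040-52981069, minus strand: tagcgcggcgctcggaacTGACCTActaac
Cry1, chr10:85185065-85185164, minus strand: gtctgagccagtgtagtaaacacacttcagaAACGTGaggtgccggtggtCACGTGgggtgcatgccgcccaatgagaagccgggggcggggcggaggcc
Counted from the downstream of the 2 RefSeq starts of *Arntl*, the first element began 6 bases before the start and the second 30 bases after it. The *Nfil3* element began 12 bases before its start, and the *Cry1* E-box and E-prime box began 60 and 79 bases before theirs. The windows of *Clock*, *Npas2* and *Rora* held none of these letters, and no window of the 6 genes held a D-box (TTANGTAA, 2.32% of all windows, or its stricter form TTATGTAA, 0.938%) or the androgen receptor half-site AGAACA (19.0%). A match describes the letters of the reference and is neither a binding site nor a cause of any difference below.

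In the GENCODE M21 annotation of the same build, *Arntl* is ENSMUSG00000055116.8 on chromosome 7, positions 113207465 to 113314126, and *Clock* is ENSMUSG00000029238.11 on chromosome 5, positions 76209868 to 76304792. *Npas2* (ENSMUSG00000026077.15) lies on chromosome 1, positions 39193731 to 39363236, and *Nfil3* (ENSMUSG00000056749.7) on chromosome 13, positions 52967209 to 52981073. *Cry1* (ENSMUSG00000020038.10) lies on chromosome 10, positions 85131700 to 85185064, and *Rora* (ENSMUSG00000032238.17) on chromosome 9, positions 68653786 to 69388246. An antisense gene overlaps *Arntl* (*Gm45355*, not among the counted symbols) and another overlaps *Rora* (*Gm15511*, counted). The strand setting of the counting is not given in the sources used here, so reads of these antisense genes and of *Arntl* and *Rora* could not be told apart without it.

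Gene counts ranged from 8268957 to 13816864 per library. Markers of immune and other cells moved with the groups, and 1 library stood apart. The summed level of the T cell list was 2.53 to 7.20 CPM in control, 5.92 to 40.0 in orchiectomized and 2.14 to 6.79 in DHT-treated mice, and 4 of its 4 tested genes were called higher in orchiectomized than in control mice. The B cell list spanned 3.18 to 6.47, 5.81 to 136 and 2.22 to 9.75 CPM with 4 of 4 called higher, and the neutrophil list 2.25 to 4.04, 8.04 to 29.1 and 3.78 to 12.3 CPM with 2 of 3 called higher and *Camp* at 0 counts in some control libraries and *Cxcr2* in some control and some orchiectomized libraries. Orchiectomized replicate 2 had the highest T cell, B cell and neutrophil levels and, at 9941 CPM, the lowest level of the smooth muscle list, which spanned 13507 to 19455 CPM in control mice and 18725 to 23430 in DHT-treated mice. The smooth muscle markers that define the tissue were thus abundant in every library. The brown fat list spanned 1115 to 4566 CPM in control, 1130 to 2230 in orchiectomized and 1598 to 4436 in DHT-treated mice, and these groups overlapped. Between DHT-treated and untreated orchiectomized mice, 4 of 4 T cell, 4 of 4 B cell, 2 of 3 neutrophil, 2 of 4 macrophage, 2 of 5 endothelial and 2 of 5 fibroblast markers were called lower and 2 of 5 skeletal muscle markers higher. In orchiectomized against control mice 2 of 5 skeletal muscle, 1 of 5 adipocyte and 1 of 5 brown fat markers were called lower. In DHT-treated against control mice 2 of 3 neutrophil markers were called higher and 2 of 5 endothelial and 1 of 5 fibroblast markers lower. These calls used edgeR and an unadjusted P value under 0.01. Of all genes tested, 2.08% were called higher and 1.13% lower in orchiectomized against control mice. The shares were 2.46% and 7.27% in DHT-treated against untreated orchiectomized mice, and 1.52% and 2.01% in DHT-treated against control mice. The part of these cell markers in the differences of the 6 genes was not tested, and in whole aortas fewer cells of a type and less RNA per cell cannot be told apart. Fold changes without orchiectomized replicate 2 are given beside each gene.

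*Arntl* had the lowest levels in the orchiectomized mice and intermediate levels in those given DHT. Its normalized level was 42.7, 59.2, 45.0, 53.7 and 51.2 CPM in control replicates 1 to 5. In the orchiectomized mice it was 25.0, 26.9, 33.0, 28.3 and 37.6 CPM, and with DHT it was 41.4, 37.0, 32.6, 35.5 and 33.4 CPM. All 5 control libraries lay above all 10 others, whereas the orchiectomized and the DHT-treated libraries overlapped. The means were 50.4 ± 6.66, 30.2 ± 5.10 and 36.0 ± 3.50 CPM (SD, n = 5 each), from 232 to 758 counts per library. The log2 fold change of orchiectomized against control mice was -0.74 (SE 0.12), a level of 0.599 times that of control. DHT-treated against untreated orchiectomized mice gave 0.26 (SE 0.12), and DHT-treated against control mice -0.48 (SE 0.12). Without orchiectomized replicate 2 these values were -0.71, 0.23 and -0.48. The paper measured *Arntl*, under the name *Bmal1*, by real-time PCR in aortas of sham-operated and orchiectomized mice after a longer time on Aldo-salt. There it rose with Aldo-salt and was not listed among the genes that also responded to orchiectomy.

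**Figure D1:**
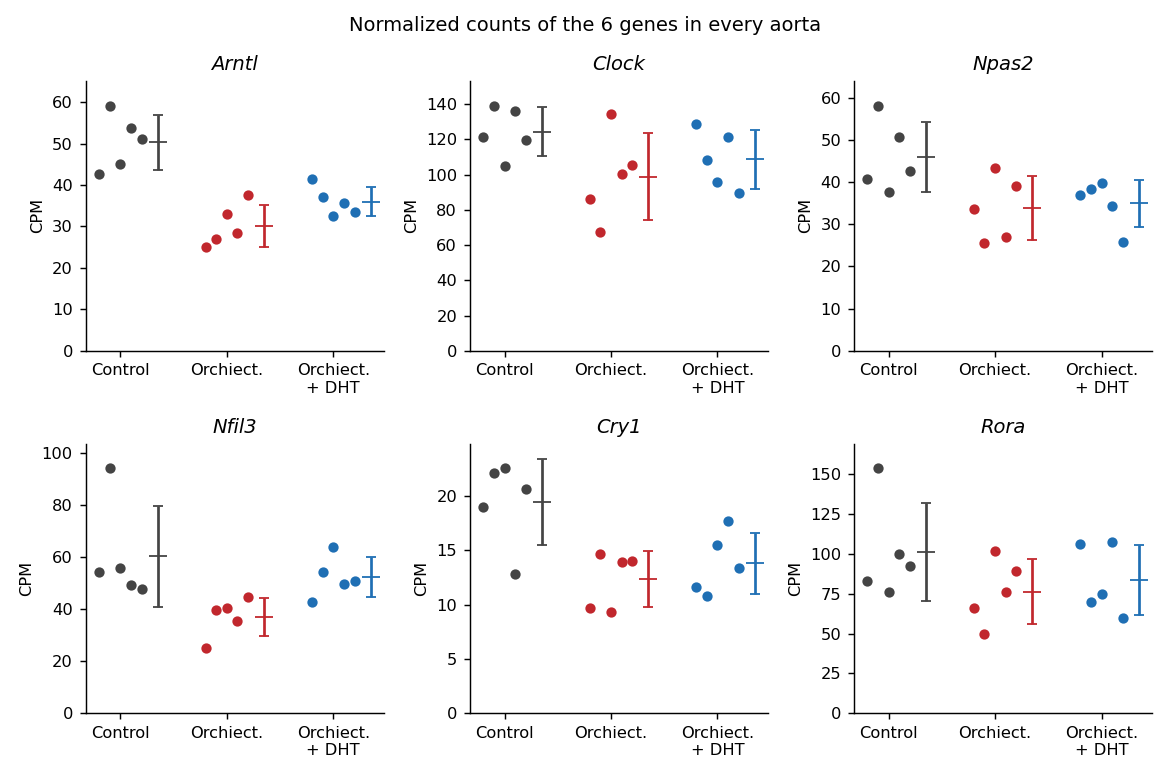
Normalized level in CPM (vertical axis, linear from 0) of *Arntl*, *Clock*, *Npas2*, *Nfil3*, *Cry1* and *Rora* in each aorta, 1 point per library, with the mean and SD of each group of 5 beside the points. The *Arntl* points of the control mice, 42.7 CPM and above, do not overlap those of the other groups. For *Clock*, *Npas2*, *Cry1* and *Rora* the points of all 3 groups overlap.

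*Clock* and *Npas2* encode the alternative partners of BMAL1, and both had lower means in orchiectomized mice with groups that overlapped. *Clock* was at 122, 139, 105, 136 and 120 CPM in the control libraries. In the orchiectomized libraries it was at 86.1, 67.7, 135, 100.2 and 106 CPM, and with DHT at 129, 108, 95.6, 121 and 89.6 CPM. Orchiectomized replicates 3 and 5 sat within the control range and replicate 2 was the lowest of all 15 libraries. The means were 124 ± 13.8, 98.8 ± 24.8 and 109 ± 16.6 CPM, and the log2 fold changes were -0.33 (SE 0.16) for orchiectomized against control, 0.14 (SE 0.16) for DHT-treated against untreated and -0.19 (SE 0.16) for DHT-treated against control mice. Without orchiectomized replicate 2 the first was -0.23 and the second 0.04, and without replicate 3 they were -0.49 and 0.30.

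*Npas2* was at 40.8, 58.2, 37.5, 50.6 and 42.6 CPM in control mice. In orchiectomized mice it was at 33.7, 25.7, 43.4, 27.0 and 39.1 CPM, and with DHT at 36.9, 38.3, 39.9, 34.3 and 25.8 CPM. Only orchiectomized replicates 3 and 5 and DHT replicates 2 and 3 reached the control range. The log2 fold change was -0.45 (SE 0.17) for orchiectomized and -0.39 (SE 0.17) for DHT-treated against control mice. It was 0.05 (SE 0.17) between the orchiectomized groups, and -0.02 there without orchiectomized replicate 2, so its sign rested on that library, and it was 0.19 without orchiectomized replicate 3. Without orchiectomized replicate 2 the value of orchiectomized against control mice was -0.37.

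*Nfil3*, the D-box repressor, was lower in orchiectomized mice than in every control library. It was at 54.2, 94.0, 55.8, 49.4 and 47.6 CPM in control, at 25.1, 39.8, 40.3, 35.5 and 44.5 CPM in orchiectomized and at 42.7, 54.1, 63.8, 49.7 and 50.8 CPM in DHT-treated mice. The highest orchiectomized library lay below the lowest control library, and 4 of 5 DHT-treated libraries lay above all orchiectomized ones. The log2 fold changes were -0.70 (SE 0.19), 0.49 (SE 0.19) for DHT-treated against untreated orchiectomized mice, and -0.21 (SE 0.19) for DHT-treated against control mice. Control replicate 2 carried part of the first value, which was -0.48 without that library, and the last value was 0.01 without it. Without orchiectomized replicate 2 the first 2 values were -0.73 and 0.53.

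*Cry1*, which encodes a repressor of the BMAL1 complex and differs from the other repressors in its later peak, was the least counted of the 6, with 90 to 236 counts per library. It was at 18.9, 22.1, 22.5, 12.8 and 20.6 CPM in control, 9.69, 14.7, 9.35, 13.9 and 14.0 CPM in orchiectomized and 11.6, 10.8, 15.5, 17.6 and 13.3 CPM in DHT-treated mice. Apart from control replicate 4, every control library lay above every other library. The log2 fold changes were -0.65 (SE 0.19) for orchiectomized and -0.49 (SE 0.19) for DHT-treated against control mice, and 0.16 (SE 0.19) between the orchiectomized groups. Without orchiectomized replicate 2 the first was -0.73 and the last 0.24, without control replicate 4 the first was -0.77, and without DHT-treated replicate 4 the last was 0.07.

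*Rora*, which encodes the activator at the ROR element, varied widely within each group, with CVs of 30.5%, 26.4% and 26.1%. It was at 82.6, 153, 76.2, 99.9 and 92.2 CPM in control, 65.7, 49.5, 101, 75.7 and 89.0 CPM in orchiectomized and 106, 69.7, 75.0, 107 and 59.7 CPM in DHT-treated mice. The groups overlapped throughout, and control replicate 2 stood above all others. The log2 fold changes were -0.40 (SE 0.23), 0.13 (SE 0.23) and -0.27 (SE 0.23) in the same order of comparisons as for *Clock*. Without control replicate 2 the first was -0.20 and the third -0.07, and without orchiectomized replicate 2 the first was -0.29 and the second 0.02. The second was 0.28 without orchiectomized replicate 3.

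Per kilobase of annotated exon, which allows levels of different genes to be compared, *Nfil3* was the most abundant in control mice at 29.7 ± 9.48 CPM per kb (SD, n = 5). *Npas2* (9.59 ± 1.75), *Clock* (9.06 ± 1.01), *Rora* (7.72 ± 2.35), *Arntl* (6.69 ± 0.885) and *Cry1* (5.81 ± 1.18 CPM per kb) followed, and each of these 5 differed from its neighbor in the order by less than the larger SD of the pair. In orchiectomized mice *Nfil3* was at 18.3 ± 3.66 and *Arntl* at 4.01 ± 0.678 CPM per kb, and with DHT at 25.8 ± 3.81 and 4.78 ± 0.465. The exon lengths are those of GENCODE M21, and the annotation behind the counts is not given in the sources used here.

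As a group, all 6 genes had a lower mean in orchiectomized than in control mice, with a median log2 fold change of -0.55 against 0.04 over all genes tested. Their median was 0.15 between DHT-treated and untreated orchiectomized mice (all genes -0.02) and -0.33 between DHT-treated and control mice (all genes -0.0029). All 6 had their means in the order control, DHT-treated, orchiectomized, an order that 13.2% of all genes tested shared. With edgeR and an unadjusted P value under 0.01, the threshold used in the study, *Arntl*, *Nfil3* and *Cry1* (3 of 6) were called lower in orchiectomized than in control mice, where 1.13% of all genes tested were, and DESeq2, which called 620 genes in either direction against 454 with edgeR, added *Npas2* (4 of 6). *Arntl* (1 of 6) was called lower in DHT-treated than in control mice (2.01% of all genes), and 0 of 6 were called higher in DHT-treated than in untreated orchiectomized mice (2.46% of all genes, and 0 of 6 with DESeq2), where only *Nfil3* had an unadjusted P value below 0.05. *Nfil3* was called there when only the 2 groups were fitted and when control replicate 2 was left out. After adjustment over all genes at 0.05, edgeR called 0 of 6 in each comparison, against 0%, 4.72% and 0.262% of all genes for orchiectomized against control, DHT-treated against untreated and DHT-treated against control mice, and 4, 1 and 3 of the 6 had an unadjusted P value under 0.05, as did 12%, 21.2% and 11.8% of all genes. Groups that did not overlap, with the control libraries all higher, were seen for *Arntl* and *Nfil3* against orchiectomized mice (0.517% of all genes) and for *Arntl* against DHT-treated mice (1.79%). None of the 6 separated the DHT-treated from the untreated orchiectomized libraries upward, as 2.09% of all genes did. The direction of the first comparison was part of the choice of these genes, and the third shares its control mice and the second its orchiectomized mice with the first, so these counts are given as a description alone.

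**Figure D2:**
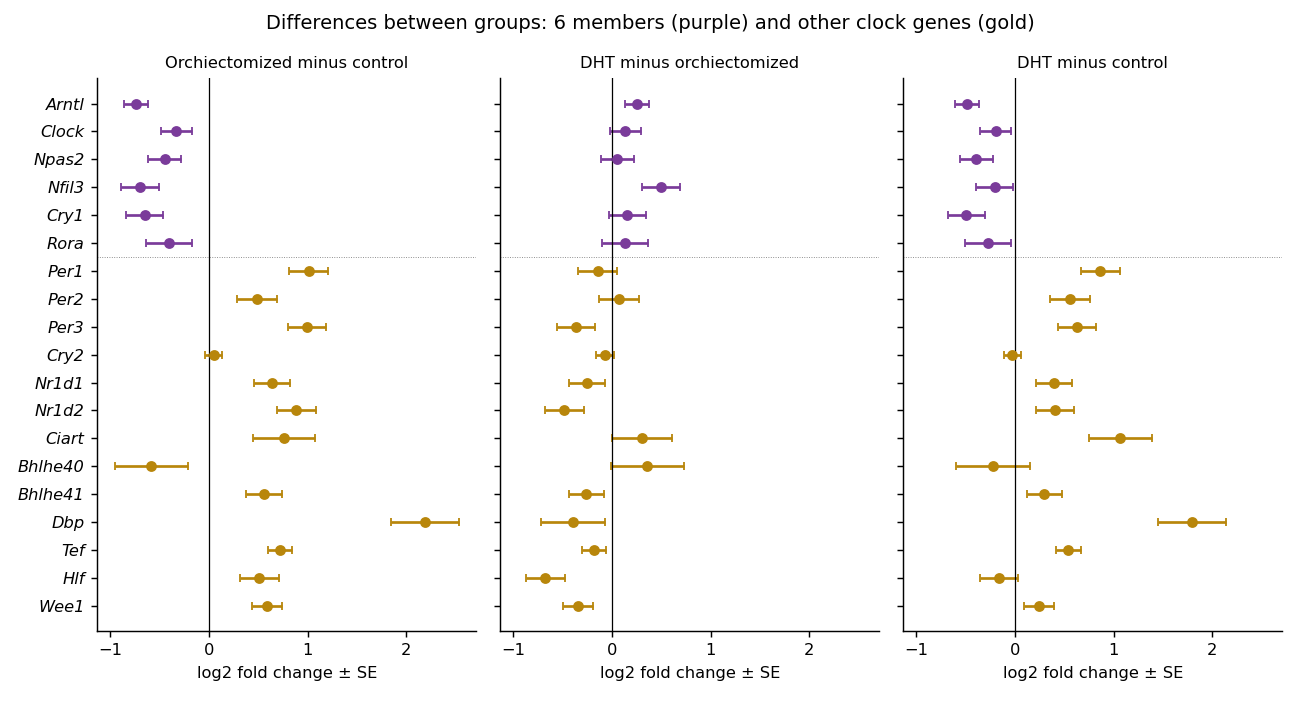
Log2 fold change (horizontal axis) with its SE from the edgeR model for the 6 genes (purple, upper rows) and for 13 other clock genes (gold, lower rows) in the 3 comparisons, which share groups with each other. In orchiectomized against control mice the 6 genes lie between -0.74 and -0.33, and *Dbp* lies farthest to the right at 2.19.

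The other genes of the clock were taken from a list of 30, of which 29 passed the filter (*Rorb* did not). These genes took no part in the choice by symbol, although the list was written with earlier results of these libraries known. Some of them, such as *Nr1d1* and *Dbp*, peak at about the opposite time of day from *Arntl* and *Nfil3*. The direction of such genes is therefore not independent of the choice of *Arntl* and *Nfil3*, which had their direction in view. The counts and P values of the listed genes, here and below, are thus given as a description alone. In orchiectomized against control mice, 8 of the 29 were called higher and 0 lower at an unadjusted P value under 0.01 by edgeR, where 2.08% of all genes tested were called higher. DESeq2 called the same 8, and 12 of the 29 had an unadjusted P value under 0.05, as did 12% of all genes. No gene passed an adjusted P value of 0.05, and the smallest adjusted P value in the list was 0.0960.

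Among the PAR bZIP output factors, which bind the D-boxes that NFIL3 also binds, *Dbp* showed the largest difference in the list. It was at 14.1, 6.09, 4.59, 15.5 and 4.65 CPM in control mice. In orchiectomized mice it was at 56.2, 28.1, 32.7, 52.3 and 37.3 CPM, and with DHT at 44.6, 30.0, 31.1, 25.1 and 26.3 CPM. Every control library lay below every other library. *Dbp* was higher in orchiectomized than in control mice by 2.19 on the log2 scale (SE 0.35, edgeR adjusted P = 0.0960) and in DHT-treated than in control mice by 1.79 (SE 0.34, adjusted P = 0.0464), and without orchiectomized replicate 2 the first was 2.28. *Tef* rose from a mean of 92.6 ± 14.3 to 153 ± 21.9 CPM (log2 fold change 0.72, SE 0.12, adjusted P = 0.0960). *Hlf* was at 27.1 ± 7.63, 38.7 ± 6.82 and 24.3 ± 5.16 CPM in the 3 groups in the order control, orchiectomized and DHT-treated.

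The repressors and brakes, which BMAL1 and CLOCK turn on, gave 5 of 9 called higher in orchiectomized mice and 0 lower. *Per1*, whose product helps to shut off the BMAL1 complex, had a log2 fold change of 1.01 (SE 0.20, edgeR adjusted P = 0.131), *Per3* of 0.99 (SE 0.19) and *Nr1d2* of 0.89 (SE 0.20). *Nr1d1*, which encodes REV-ERBα, had 0.64 (SE 0.18) and *Bhlhe41* 0.56 (SE 0.18). These last calls lay near the threshold. *Bhlhe41* lost its call in 9 of the 15 fits that left out 1 library (log2 fold change 0.45 to 0.70 over the 15) and *Nr1d1* in 4 of 15, without control replicate 2 or 3 or orchiectomized replicate 1 or 4 (0.53 to 0.75 over the 15). *Per2* (0.49, SE 0.20) and *Ciart* (0.76, SE 0.31) did not pass, and *Cry2*, the paralogue of *Cry1*, was at 0.05 (SE 0.09), with means of 55.4 ± 4.74 and 57.2 ± 5.62 CPM. *Bhlhe40* was the only one of the 9 with a negative value, -0.58 (SE 0.37), at this comparison. Of the clock-controlled outputs, *Wee1*, a cell cycle kinase, was called higher (0.59, SE 0.15) and the other 4 were not.

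Groups that did not overlap, with the control libraries all lower, were seen for 6 of the 29 against orchiectomized mice, *Per1*, *Per3*, *Nr1d2*, *Dbp*, *Tef* and *Wee1* (0.991% of all genes), and for *Per1*, *Per3*, *Dbp* and *Tef* against DHT-treated mice (1.78%). The kinases, ligases and other modifiers of clock proteins, most of which act on the proteins and do not cycle strongly, had a median log2 fold change of 0.02 in orchiectomized against control mice. Of these, 0 of 10 were called by edgeR or by DESeq2, with 0 of 10 at an unadjusted P value under 0.05. By edgeR, 2.08% of all genes were called higher, 1.13% lower, and 12% had an unadjusted P value under 0.05, so 0 of 10 is not read as a difference from other genes. *Arntl2*, the paralogue of *Arntl*, was at -0.20 (SE 0.19) and was not called.

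In DHT-treated against control mice, 5 of the 29 were called higher (*Per1*, *Per3*, *Ciart*, *Dbp* and *Tef*, against 1.52% of all genes) and 0 lower, and DESeq2 called 6. *Per3* lost its call without control replicate 2, 3 or 4 or DHT-treated replicate 1 or 4 (lowest 0.46), and *Ciart* without control replicate 2, 3 or 4 or DHT-treated replicate 1 (lowest 0.89). *Per1* was at 25.2 ± 2.12 CPM in control, 50.6 ± 13.2 in orchiectomized and 45.8 ± 13.4 in DHT-treated mice. Between DHT-treated and untreated orchiectomized mice only *Hlf* was called, lower by -0.67 on the log2 scale (SE 0.20, edgeR adjusted P = 0.0637), where 7.27% of all genes were called lower. It was no longer called without orchiectomized replicate 2 (-0.58), nor without orchiectomized replicate 4 or DHT-treated replicate 2, 3 or 5.

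**Figure D3:**
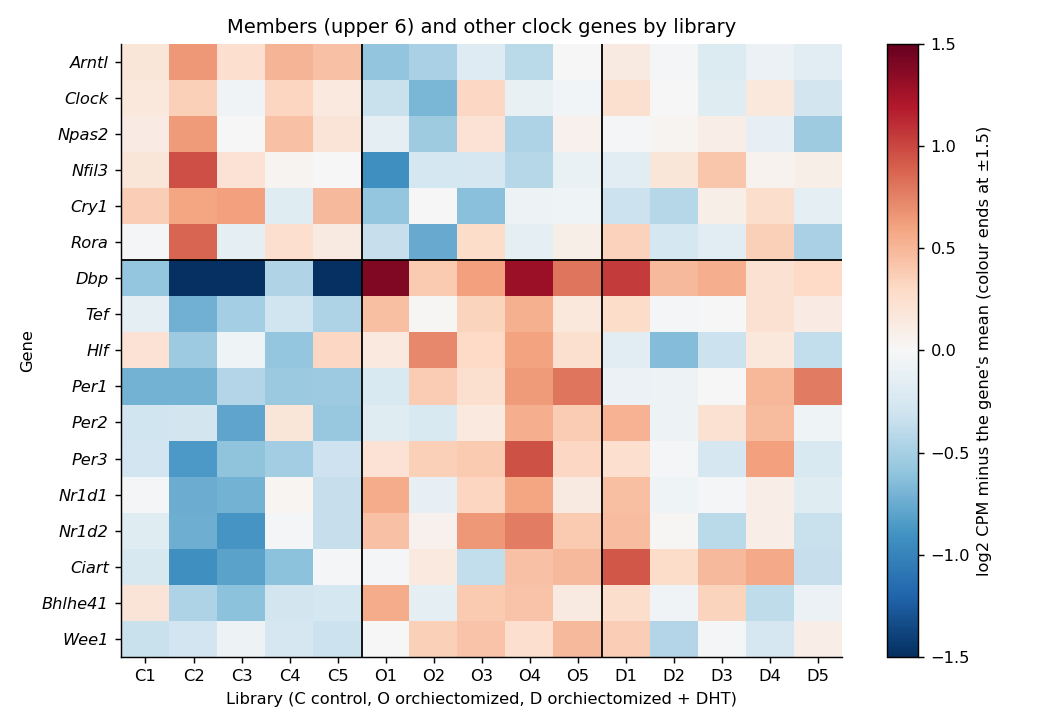
Log2 CPM of each gene minus its mean over the 15 libraries (color, blue below and red above the mean, ending at ±1.5), with genes in rows and libraries in columns. The upper 6 rows are *Arntl*, *Clock*, *Npas2*, *Nfil3*, *Cry1* and *Rora*, and the lower 11 are other clock genes. Control libraries are mostly red above and blue below the dividing line, and *Dbp* has the deepest colors.

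The distance between the 2 arms was also followed within each library, as the log2 CPM of *Dbp* minus that of *Arntl*. It was -2.64 ± 0.88 in control, 0.42 ± 0.56 in orchiectomized and -0.22 ± 0.24 in DHT-treated mice (SD, n = 5 each). The highest control value, -1.58, lay below the lowest value of the other groups, -0.50. Control *Arntl* lay above and control *Dbp* below every other library, so this separation was fixed by the genes taken. It is given as a description alone. For *Per3* minus *Arntl* the values were -2.15 ± 0.39, -0.45 ± 0.39 and -1.08 ± 0.32. Within the activating pair, *Clock* minus *Arntl* was 1.30 ± 0.12, 1.68 ± 0.28 and 1.58 ± 0.13, and *Npas2* minus *Clock* was -1.44 ± 0.12, -1.53 ± 0.22 and -1.63 ± 0.25, so the level of *Npas2* relative to *Clock* differed between groups by less than the largest SD within them.

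**Figure D4:**
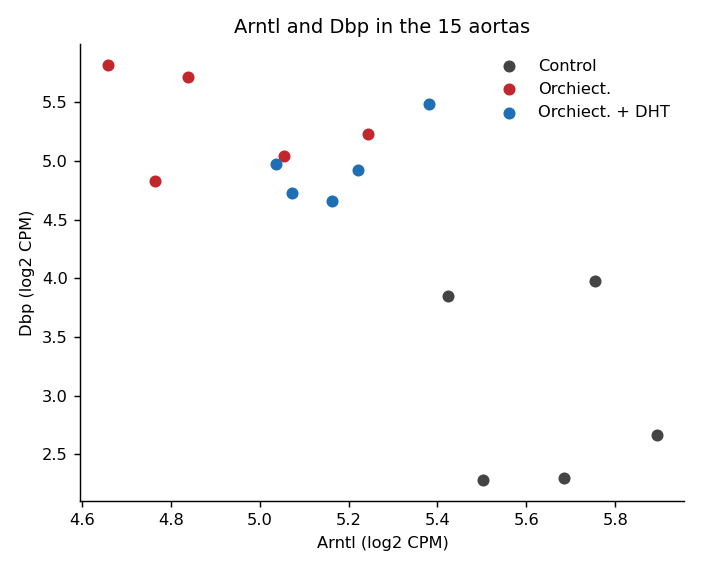
Log2 CPM of *Arntl* (horizontal axis) against that of *Dbp* (vertical axis) in the 15 aortas, 1 point per library, colored by group. The 5 control points lie at high *Arntl* and low *Dbp*, apart from the other 10.

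Across the 15 libraries the 6 genes varied together to different degrees. Pearson's r with *Arntl* on the log2 CPM scale was 0.78 for *Npas2*, 0.75 for *Clock*, 0.70 for *Rora* and for *Nfil3*, and 0.57 for *Cry1*. These libraries share 3 groups that differ in level, so r was also computed on deviations from the group means, where it was 0.65 for *Npas2*, 0.69 for *Clock*, 0.75 for *Rora*, 0.42 for *Nfil3* and -0.12 for *Cry1*. *Clock* and *Rora* were the closest pair, with r = 0.90 over all libraries and 0.88 within groups. *Clock*, *Npas2*, *Rora* and *Arntl* thus went up and down together between mice of the same group, which was not particular to them. Among the other clock genes, r with *Arntl* within groups ranged from -0.61 (*Usp2*) to 0.75 (*Fbxw11*), with *Fbxl21* at 0.71 and *Per2* at 0.50. Orchiectomized replicate 2 had the lowest *Clock*, *Npas2* and *Rora* of all 15 libraries, and r within groups was not computed without it. *Nfil3* had values within groups of 0.34 to 0.43 with *Rora*, *Npas2*, *Arntl* and *Cry1* and 0.12 with *Clock*, and *Cry1* had -0.36 with *Clock* and -0.35 with *Npas2*. Control replicate 2 had the highest *Arntl*, *Clock*, *Npas2*, *Nfil3* and *Rora* of all 15 libraries. Leaving it out gave r with *Arntl*, with group means not removed, of 0.46 for *Cry1*, 0.58 for *Nfil3* and 0.59 for *Rora*. *Dbp* had r = -0.78 with *Arntl* over all libraries and -0.08 within groups.

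**Figure D5:**
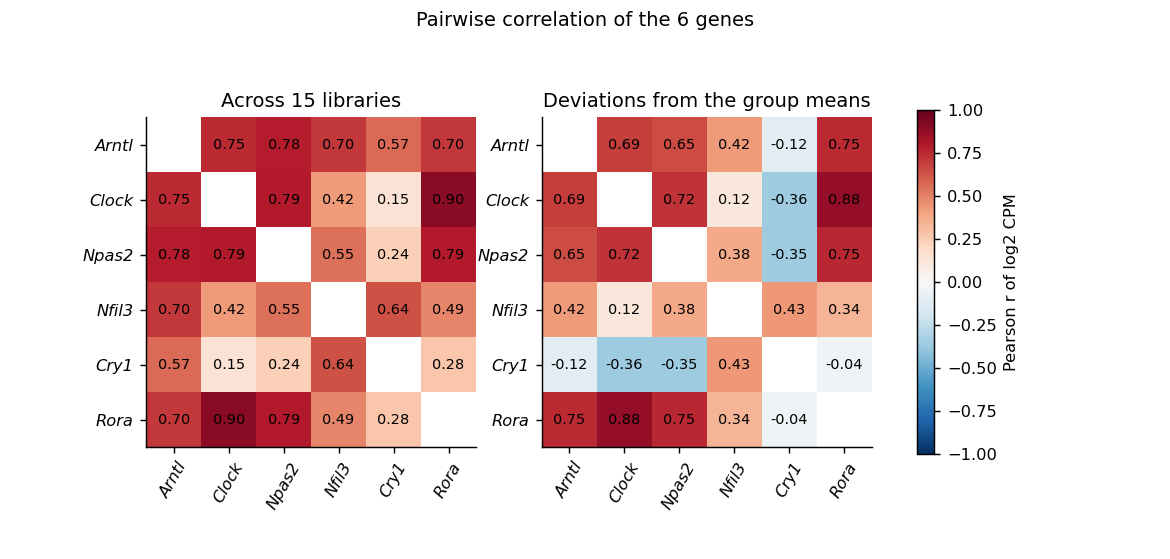
Pearson's r of log2 CPM for every pair of the 6 genes, over all 15 libraries (left) and on deviations from the group means (right), with the value printed in each cell and red for positive, blue for negative. *Cry1* has positive values with the other 5 on the left and negative values with *Arntl*, *Clock*, *Npas2* and *Rora* on the right.

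Among the 14120 other genes tested, *Npas2* ranked 7, *Clock* 14, *Rora* 34, *Nfil3* 35 and *Cry1* 389 by r with *Arntl* over the 15 libraries. This r includes the differences between the 3 groups, for which the 6 genes were chosen, so the ranks are a description alone. The 5 most alike were *Bicd2* (0.85), *Mapk6* (0.81), *Wwp1* (0.79), *Naa25* (0.79) and *Bend3* (0.79), with r within groups of 0.70, 0.78, 0.53, 0.68 and 0.69. The 5 most opposite were *S100a9* (-0.84), *Rhebl1* (-0.83), *Tef* (-0.83), *Mepce* (-0.81) and *Fmo5* (-0.81), with r within groups of -0.43, -0.63, -0.30, -0.57 and -0.86. *S100a9* is a neutrophil gene, at means of 0.677, 8.44 and 2.57 CPM in control, orchiectomized and DHT-treated mice, in the order opposite to that of *Arntl*, and the part of neutrophils in the *Arntl* values was not tested.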

How the data were processed

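Whole aortas were cleaned in RNAlater, and poly(A)-selected RNA was sequenced. Per library, the authors deposited unnormalized whole-number read counts listed by gene symbol. The submitters' processing notes name mm10, STAR, Cufflinks and DESeq2, and the counting program, its strand setting and the annotation are not given in the sources used here. The 2 entries that name no gene held 6.26% to 14.4% and 1.34% to 1.97% of the reads and were left out.

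Tests were run with edgeR 4.0.16 under R 4.3.3 (filterByExpr with minimum count 10 and minimum total count 15, TMM, 1 quasi-likelihood model of the 3 groups over 15 libraries), and the model was tested on simulated data. The biological coefficient of variation was 0.297. Calls used an unadjusted P value under 0.01, with Benjamini-Hochberg adjustment over all genes tested. CPM are TMM-normalized, and log2 CPM used a prior count of 3. Within each group, every pair of libraries differed by more than sampling noise. The labels number the aorta samples and do not say whether any was pooled, so P values measure the spread between these samples. The 6 genes and all gene lists were chosen with earlier results of these data known. Named genes were the 6, the clock list, the 5 most alike and 5 most opposite to *Arntl*, and marker lists. Alternatives were DESeq2 1.42.0, RLE factors, 2 other filters, a fit of the 2 groups compared, a replicate block, a robust fit, the adjusted threshold and leaving out each library. Sequences and promoters came from RefSeq, and gene positions from GENCODE M21, both GRCm38 (mm10). Figures used Python 3.11.15 and matplotlib 3.10.9.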

Additional observations from a re-analysis of the deposited data

Results flagged for a closer look

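In 6 of the 105 combinations of gene and group examined (35 clock genes in 3 groups of 5), 1 library lay far from the other 4, a distance that chance gives in about 1 in 20 groups. *Nfil3* in control replicate 2 was at 94 CPM, with the next library at 55.8. *Per3* in orchiectomized replicate 4 was at 31.1 CPM (next 21). *Fbxw11* in DHT-treated replicate 1 was at 147 CPM (next 125), and in DHT-treated replicate 4 *Gsk3b* was at 159 (next 125) and *Nono* at 125, below the next at 144. *Cirbp* in control replicate 4 was at 53.5 CPM (next 43.1).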

How the results depend on the processing

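The fold changes of *Arntl*, *Clock*, *Npas2*, *Nfil3*, *Cry1* and *Rora* moved by less than the SD between replicates in all 126 values from other settings and all 270 that left out 1 library, and all 6 stayed negative in orchiectomized against control mice. *Arntl* there ranged from -0.83 to -0.68 when 1 library was left out, from 0.20 to 0.35 in DHT-treated against untreated mice and from -0.54 to -0.42 against control. *Cry1* was not called without control replicate 2 (375 of all genes called, 454 with every library), and 5 of the 6 genes were called without orchiectomized replicate 3 (499 of all genes).

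At an adjusted P value under 0.05, 0 of the other clock genes were called in orchiectomized against control mice, 0 in DHT-treated against untreated and 1 in DHT-treated against control mice. Leaving out 1 library gave 6 to 8, 0 to 3 and 3 to 5 calls in these comparisons. The second gave 3 without DHT-treated replicate 1 and 2 without orchiectomized replicate 3, and the third gave 3 without control replicate 2 or 3 or DHT-treated replicate 1. *Bhlhe41* lost its call with RLE factors (0.53), with all genes (0.51) and with only 2 groups in the fit (0.53), where *Nr1d1* (0.62) did too, and in 9 and 4 of the 15 fits that left out 1 library. *Cry2* ranged from -0.038 to 0.086 and turned negative in 3 fits, at -0.00064 without control replicate 5, -0.0026 without orchiectomized replicate 1 and -0.038 without orchiectomized replicate 4. The replicate numbers did not pair the libraries (correlation of same-numbered deviations -0.47 to 0.46). A replicate block gave 8, 1 and 7 calls against 8, 1 and 5, and the same calls among the 6 genes. Depth limits *Cry1* most among the 6 genes, at 90 to 236 counts per library, and of the other clock genes called *Ciart*, at 8 to 40.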
